A study of Sus scrofa with 6 samples.

Results

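Fat is stored in cells as triglyceride, and the 10 genes described here, DGAT2, CIDEA, SCD, FABP4, FASN, CFD, LIPE, GPD1, PNPLA2 and LEP, belong to the making, storing and breaking down of that triglyceride or to the hormones and enzymes that fat cells secrete. They were chosen by symbol: every probe set whose single gene symbol in the platform annotation is 1 of the 10 was taken, which gave 17 of the 24123 probe sets on a porcine Affymetrix expression array. Of the 17, 2 are control probe sets for LEP and were not tested, and 3 of the other 15 lay below the filter on dim probe sets. Each of the 10 genes kept at least 1 tested probe set, and the probe set with the highest mean over the arrays represents its gene. The members were picked with earlier results of these arrays known.

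Left atrial RNA of 6 Lanyu miniature pigs, all males of 18 months, was hybridised with 1 array per animal and n = 2 per group. NC animals were normal controls, and no surgery is recorded for them. MR animals carried mitral regurgitation, in which blood leaks back into the atrium at each beat, made by cutting a hole of 2.8 mm into the posterior leaflet of the mitral valve, and were killed 12 months after that surgery without receiving valsartan. MRV animals had the same hole and the same interval, and were given valsartan, which blocks the angiotensin II receptor of type I, daily at 3.43 mg/kg/day, starting 1 week ahead of the operation. All animals had the usual diet. Comparisons with NC therefore hold the lesion and the surgery together.

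Fatty acids are built from acetyl units by fatty acid synthase (FASN) and given a double bond by stearoyl-CoA desaturase (SCD). Glycerol 3-phosphate from GPD1 supplies the backbone, and DGAT2 adds the last fatty acid to make triglyceride, which is kept in lipid droplets coated by proteins such as CIDEA. Release runs through the lipases PNPLA2 and LIPE, FABP4 carries fatty acids inside the cell, and LEP (leptin) and CFD (complement factor D, or adipsin) are secreted by fat cells. The atria lie beside epicardial fat and can hold fat cells among their muscle fibres, while heart muscle cells keep lipid droplets of their own.

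The name of fat cells for this set was checked against markers that the rule did not use. Adiponectin (ADIPOQ), a secreted protein of mature fat cells, read 23.5 and 30.3 for NC, 35.1 and 20.5 for MR and 20.3 and 20.6 for MRV, below the filter at a mean intensity of 61.4. PPARG, the nuclear receptor that drives fat cell formation, also lay below it, at 92.9 and 45.1 for NC, 57.6 and 49.7 for MR and 34.1 and 37.4 for MRV. CEBPA, its partner factor, passed the filter and read 71.9 and 77.4 for NC, 75.0 and 74.4 for MR and 58.0 and 68.3 for MRV. For PLIN1 and CIDEC, which coat the droplets of fat cells, the annotation used here gave no single-symbol probe set. The most specific fat cell markers were thus dim or without a probe set, so the set is called lipid storage and synthesis genes here, without assigning its RNA to a cell type. In whole atrial tissue, fewer cells of a type and less RNA per cell cannot be told apart.

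The arrays had medians from 90.2 to 93.4 intensity units. Heart muscle was plain in the data, with 9 of 9 measured heart muscle markers tested and a summed intensity from 121563 to 128595. The correlation of NC1 with NC2 (r = 0.958 over probe sets, a description) was below that of MR1 with MR2 (r = 0.980) and of MRV1 with MRV2 (r = 0.981). NC1 also had the lowest 28S ribosomal control signal, 117 against 187 to 559 on the other arrays. The highest was in MRV2, and another 28S control had the same extremes, 54.0 in NC1 and 191 in MRV2. Whether this signal bears on the values of the 10 genes was not tested. RNA degradation raises the 3' to 5' signal ratio of control genes. It was 1.53 to 1.59 for GAPDH on all arrays. The first actin control gave 1.61 and 1.91 for NC, 1.44 and 1.70 for MR and 2.30 and 1.87 for MRV, while the second gave 9.72 and 6.96 for NC, 8.10 and 9.11 for MR and 6.46 and 11.6 for MRV, so the controls did not order the arrays alike.

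Among the synthesis genes, DGAT2 had the widest spread on the log2 scale. It read 324 in NC1 and 112 in NC2, 112 and 90.7 in MR, and 101 and 91.7 in MRV. NC1 stood 2.88 times above the next highest array, and the other 5 arrays lay close together. SCD read 653 in NC1 and 323 in NC2, 325 and 356 in MR, and 295 and 234 in MRV. NC1 was again the highest, by 1.84 times, and both MRV arrays lay below the other 4. FASN read 472 and 268 for NC, 256 and 219.5 for MR and 292 and 239 for MRV, with NC1 1.62 times above the next array. GPD1, which feeds glycerol 3-phosphate into triglyceride, had another order: 210.0 and 323 for NC, 292 and 227 for MR and 167 and 145 for MRV. Its MRV arrays were the lowest of the 6, and NC1 was below NC2.

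Of the genes of droplets and fatty acid binding, CIDEA read 175 and 84.2 for NC, 62.0 and 65.2 for MR and 83.8 and 52.9 for MRV. NC1 was the highest by 2.07 times, and NC2 and MRV1 were nearly equal. FABP4 read 2911 and 1997 for NC, 1529 and 2093 for MR and 1671 and 791 for MRV. NC1 was the highest and MRV2 the lowest, while NC2 lay among the MR and MRV1 values. FABP4 is also known from capillary endothelium and macrophages. The 8 endothelial markers with a probe set summed to 3860 and 3687 for NC, 3710 and 4096 for MR and 3434 and 3853 for MRV, with VWF and PECAM1 among the tested ones. The 6 macrophage markers summed to 987 and 573 for NC, 481 and 853 for MR and 465 and 933 for MRV. MRV2, where FABP4 was lowest, thus had the second highest macrophage sum, and the part of these cells in FABP4 was not tested.

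Of the secreted products, CFD read 1845 and 1293 for NC, 1113 and 1342 for MR and 1287 and 854 for MRV. It had its highest value in NC1 and its lowest in MRV2, as FABP4 did. LEP, the satiety hormone, read 112 and 145 for NC, 136 and 116 for MR and 129.5 and 142 for MRV. NC1 was the lowest of the 6 values of this LEP probe set, the reverse of its place for DGAT2, CIDEA, SCD, FABP4, FASN and CFD. In the other LEP probe sets NC1 was not the lowest.

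The lipases differed from one another. PNPLA2 (adipose triglyceride lipase), which takes the first fatty acid from triglyceride, read 1454 and 1612 for NC, 1557 and 1421 for MR and 1449 and 1603 for MRV, a narrow band in which all groups overlapped. LIPE (hormone-sensitive lipase), which acts on the diglyceride left behind, read 176 and 189 for NC, 112 and 98.0 for MR and 198 and 119 for MRV. Both MR arrays were below all others, MRV1 was the highest and MRV2 lay near MR.

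**Figure D1:**
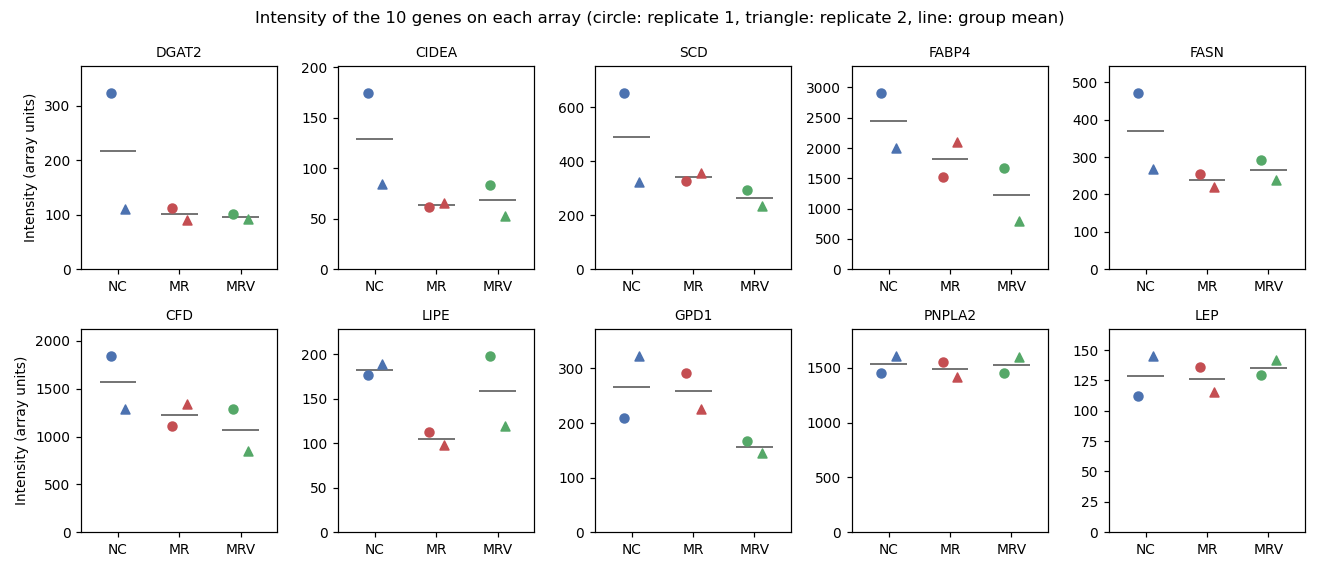
Deposited intensity (vertical axis, linear array units from 0) of each of the 10 genes on the 6 arrays by group (horizontal axis), with circles for replicate 1, triangles for replicate 2 and lines for group means. DGAT2, CIDEA, SCD, FABP4, FASN and CFD have their highest point in NC1, LIPE is lowest in both MR arrays and GPD1 in both MRV arrays.

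Across the set, 6 of the 10 genes had their highest value in NC1, whereas NC1 was the highest array for 26.5% of the 5408 genes with a tested probe set. MRV2 was the lowest array for 5 of the 10, CIDEA, SCD, FABP4, CFD and GPD1, against 19.3% of all genes. The gap between the 2 NC arrays had a median of 0.56 on the log2 scale over the 10 genes and 0.17 over all genes. In MR these medians were 0.21 and 0.13, and in MRV 0.29 and 0.12. At the median, the animals within each group thus lay further apart in these genes than in all genes.

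Some markers of other cells also had their highest value in NC1, the highest array for 26.5% of all genes. NC1 had the highest value for 4 of 5 tested macrophage markers, 3 of 6 fibroblast markers and 4 of 6 smooth muscle and pericyte markers. It did so for 2 of 7 endothelial markers, near the share of all genes, and for 0 of 9 heart muscle markers. Where NC1 was the highest, it stood from 1.02 times (LUM) to 1.61 times (MFAP5) above the next array, so several were near ties. The 7 fibroblast markers with a probe set summed to 13236 and 8563 for NC, 8725 and 10938 for MR and 8721 and 10885 for MRV. Of the 4 tested fat cell identity genes, CEBPA, LPL, ADRB3 and SLC2A4, 0 were highest in NC1. Among those below the filter, PPARG (92.9) and PCK1 (73.1) were highest in NC1, while ADIPOQ, RETN and RBP4 were not. The 9 fat cell identity genes with a probe set summed to 1940 and 1918 for NC, 2715 and 1589 for MR and 1038 and 1935 for MRV. LPL, which heart muscle also makes, dominates that sum. The 4 mesothelial markers with a probe set were all below the filter and summed to between 182.5 and 239. The part of any of these cells in the values of the 10 genes was not tested.

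The genes fell into patterns across the arrays, described here with no test because the groupings were seen in the values. Pearson correlations of log2 values over the 6 arrays, which share the NC1 value, were 0.97 for FABP4 with CFD, 0.96 for DGAT2 with FASN, 0.96 for CIDEA with FASN and 0.91 for CIDEA with SCD. Without NC1, over 5 arrays, the correlation of FABP4 with CFD was 0.98, while those of the other pairs were 0.62, 0.71 and 0.45. FABP4 and CFD thus moved together on the other arrays too, with MRV2 low in both. Over the 15 pairs of the 6 genes highest in NC1, the median correlation was 0.90 with NC1 and 0.48 without it. These genes were picked for their high NC1 value, which by itself raises correlations that include NC1, so the drop carries no further information. PNPLA2 and LEP correlated at 0.89 with each other and negatively with the mean of the other genes, at -0.36 and -0.56. LIPE and GPD1 had correlations to the mean of the other genes of 0.48 and 0.22, below those of the 6 genes highest in NC1. Those 6 genes make up most of that mean, so this order follows in part from how they were picked. LIPE correlated at 0.62 with CIDEA and 0.61 with FASN.

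**Figure D2:**
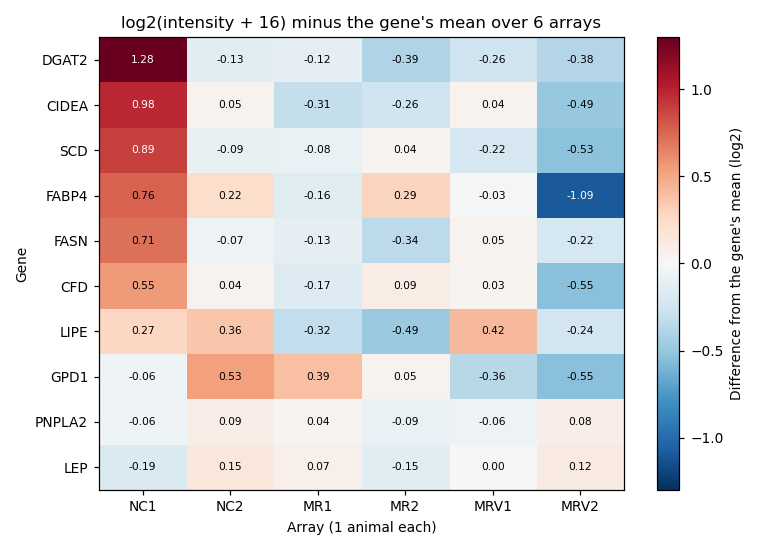
Each cell gives log2(intensity + 16) on 1 array (columns) minus the mean of that gene (rows) over the 6 arrays, with red above and blue below the mean. NC1 is above the mean by 0.55 to 1.28 for the first 6 genes, MRV2 is below it by 1.09 for FABP4 and 0.55 for CFD, and PNPLA2 and LEP stay within 0.19 of their means.

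Of the genes with a tested probe set outside the 10, those closest to the mean pattern of the members over the 6 arrays were GNG7, ZNF330, IDH2, SGCD, SLC46A1, ACSL6, TPPP3, EIPR1, SYNM and PREP, with Pearson correlations from 0.997 to 0.953. With so few arrays and so many genes, such values are a description only. ACSL6, a long-chain acyl-CoA synthetase, had the largest ratio of highest to lowest array among them, at 1596 and 974 for NC, 513 and 546 for MR and 717 and 429 for MRV. IDH2, the mitochondrial isocitrate dehydrogenase that makes NADPH, read 6232 and 5357 for NC, 5294 and 5131 for MR and 5188 and 4799.5 for MRV. Of the 4 tested fat cell identity genes, CEBPA had a correlation of 0.18 with that pattern, LPL 0.0068, SLC2A4 0.0054 and ADRB3 -0.043. ADRB3 varied little, from 95.5 to 103 over the arrays, and heart muscle also makes LPL. These 4 correlations therefore cannot tell whether fat cell genes followed the pattern. The identity genes below the filter were left out of these correlations, among them PPARG and PCK1, which were highest in NC1.

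FASN, PNPLA2 and LEP had several probe sets, and those of FASN did not show the same pattern. The brightest, given above, had NC1 well above the rest. The second brightest read 242 and 240.0 for NC, 259.7 and 236 for MR and 281 and 248 for MRV, and the third read 94.4 and 99.6, 91.3 and 74.9, and 104 and 101. In both, NC1 lay inside the range of the other arrays, and MRV1 was the highest. The dimmest, below the filter, read 39.6 in NC1, its lowest value, and 54.0 in MRV2, its highest. The high NC1 value of FASN therefore came from 1 of its 4 probe sets.

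The second PNPLA2 probe set was below the filter and read 39.7 and 54.6 for NC, 36.2 and 30.1 for MR and 41.8 and 59.2 for MRV. It was lowest in both MR arrays, unlike the brighter probe set. The control probe sets of LEP read 167 to 191 and 119.5 to 131.5 over all arrays, with overlap between all groups, and the dimmest LEP probe set, below the filter, read 13.6 to 17.0. These were lowest in MR2, MRV1 and MRV1, so the low NC1 value of LEP came from its representative probe set only.

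**Figure D3:**
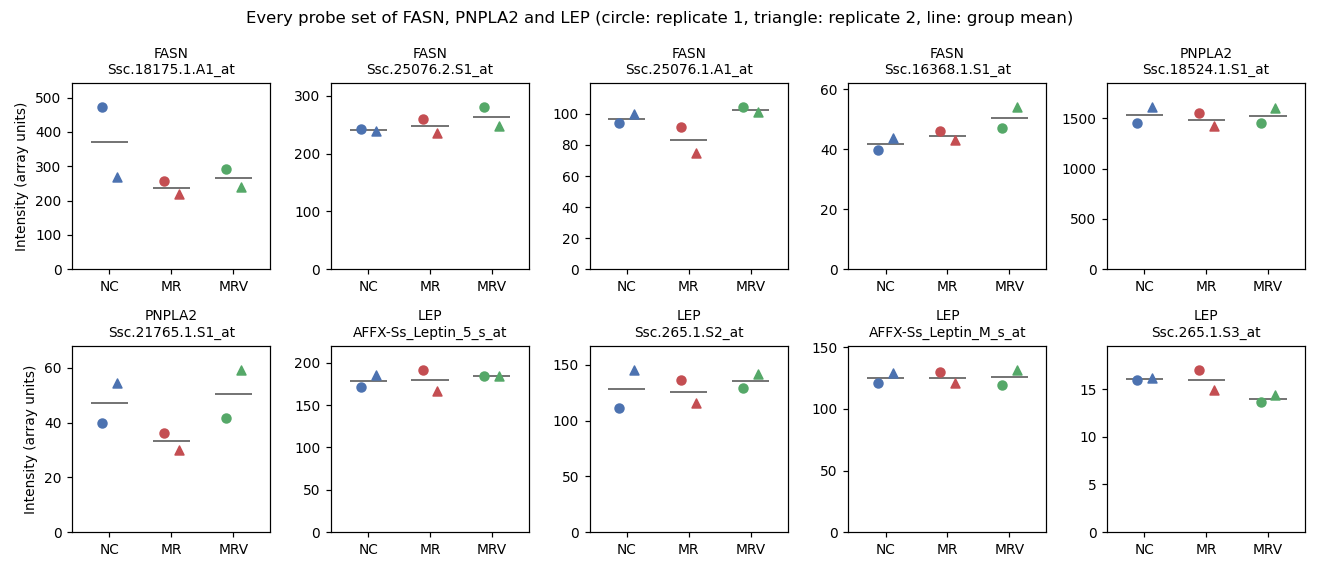
Deposited intensity (vertical axis, linear array units from 0) of every probe set of FASN, PNPLA2 and LEP by group, with circles for replicate 1, triangles for replicate 2 and lines for group means. Only the brightest of the 4 FASN probe sets has NC1 (472) far above the other arrays, and the LEP probe sets show overlapping groups except the dimmest, whose MRV values of 13.6 and 14.4 lie below the others.

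Setting MR against NC asks how regurgitation, together with surgery, goes with atrial RNA. All 10 genes had a negative log2 difference, with a median of -0.42, while 47.4% of the 5408 genes did and their median was 0.0076. The limma test, adjusted over 14400 probe sets, called 0 of the 10 genes, against 0.00694% of probe sets, which is 1 probe set, that of asparagine synthetase (ASNS), named here after its value was seen. At an unadjusted limma p under 0.05, 1 of the 10 genes passed, LIPE, against 4.02% of probe sets. With limma-trend, 0 genes of the 10 were called as well.

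LIPE was the gene whose groups stood furthest apart for their spread. Its log2 difference between MR and NC was -0.71 (SE 0.23, limma adjusted p = 0.999955). Leaving out any 1 of the 4 arrays kept it between -0.80 and -0.63. CIDEA differed by -0.80 (SE 0.33) and FASN by -0.56 (SE 0.27), both without overlap of the arrays, and DGAT2 by -0.83 (SE 0.44) with overlap. The other FASN probe sets, from brighter to dimmer, differed by 0.035, -0.19 and 0.071, and the mean of all 4 by -0.16. The limma adjusted p-value of each of the 10 genes was 0.999955. Groups did not overlap for 3 of the 10, all lower in MR, against 12.4% of all genes lower, 15.7% higher and 28.2% in either direction. SCD, FABP4 and CFD differed by -0.42, -0.43 and -0.33 with overlap. GPD1, PNPLA2 and LEP differed by -0.019, -0.041 and -0.022, with SEs of 0.23, 0.12 and 0.15, while the dim PNPLA2 probe set differed by -0.35 without overlap.

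Most of this shift rested on NC1. Without NC1 the median of the 10 genes was -0.16, with 9 of 10 below 0, DGAT2 was -0.12, CIDEA -0.33, FASN -0.17 and SCD 0.071. LIPE without NC1 was -0.76. Without NC2 the median was -0.68, with 7 of 10 below 0, and DGAT2 was -1.54. Without MR1 the median was -0.28 and without MR2 it was -0.47, with 7 of 10 below 0 in the latter. LIPE was thus the member whose difference from NC was much the same with either control animal.

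**Figure D4:**
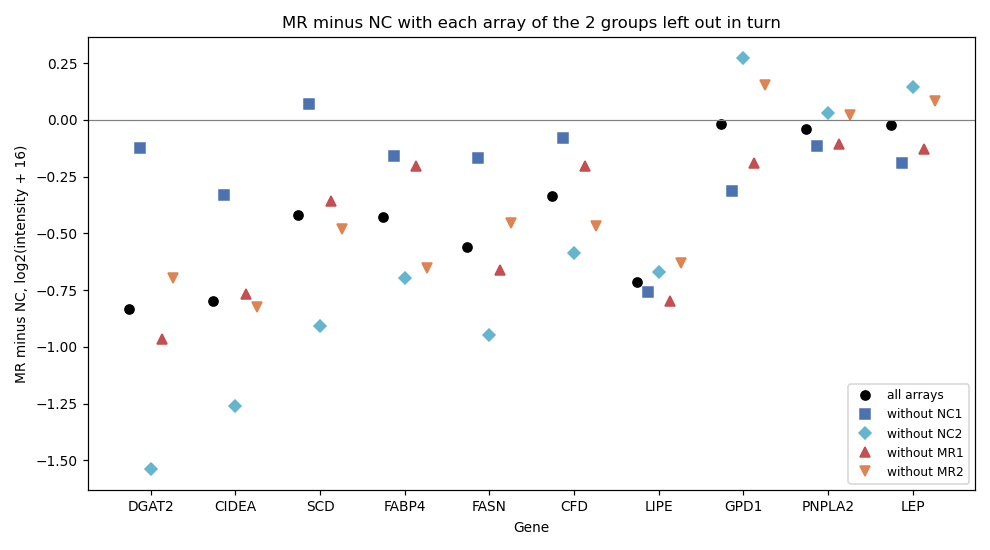
MR minus NC on the log2(intensity + 16) scale (vertical axis) for each gene, with all arrays (black circles) and with each NC or MR array left out (coloured symbols). Without NC1, DGAT2 moves from -0.83 to -0.12 and SCD from -0.42 to 0.071, whereas LIPE stays between -0.80 and -0.63 in all cases.

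Setting MRV against MR asks what goes with valsartan in animals with regurgitation. The 10 genes split evenly, 5 lower and 5 higher in MRV, with a median log2 difference of -0.013 against -0.031 over all genes, of which 57.6% were lower. limma with adjustment called 0 of the 10 genes and 0% of the probe sets. At an unadjusted limma p under 0.05, 1 of the 10 genes passed, GPD1, against 7.28% of probe sets, and limma-trend also called 0. GPD1 differed between MRV and MR by -0.67 (SE 0.23, limma adjusted p = 0.638), lower in MRV, and lay between -0.84 and -0.50 with any 1 of the 4 arrays left out. LIPE was higher by 0.49 (SE 0.23, limma adjusted p = 0.709) and lay between 0.16 without MRV1 and 0.83 without MRV2. SCD differed by -0.35 (SE 0.32). LIPE did not overlap, higher in MRV, and neither did GPD1 and SCD, lower in MRV. That is 1 of 10 higher against 15% of all genes, and 2 of 10 lower against 28.7%, so these counts were near the background of 43.7% in either direction.

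FABP4 differed between MRV and MR by -0.63 (SE 0.39), and by -1.16 without MRV1 and -0.098 without MRV2. CFD differed by -0.22 (SE 0.26), and by 0.073 without MRV2. DGAT2, CIDEA, FASN, PNPLA2 and LEP differed by -0.061, 0.059, 0.15, 0.035 and 0.098. The remaining FASN probe sets differed by 0.087, 0.26 and 0.13, the same sign as the representative one, and the dim PNPLA2 probe set by 0.43.

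Setting MRV against NC asks how treated animals with the lesion differ from controls. This comparison shares the NC arrays with the first comparison and the MRV arrays with the second, so the 3 sets of values are not independent. MRV was lower for 9 of the 10 genes, and for 8 of 10 after quantile normalization, with a median log2 difference of -0.62. Over all genes 55.8% were lower and the median was -0.023. limma with adjustment called 0 of the 10 genes and 0% of the probe sets, and limma-trend also called 0. At an unadjusted limma p under 0.05, 2 of the 10 genes passed, GPD1 and FABP4, against 5.29% of probe sets.

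FABP4 had the largest log2 difference of the 10, -1.06 (SE 0.39, limma adjusted p = 0.904). GPD1 differed by -0.69 (SE 0.23, limma adjusted p = 0.904). DGAT2, SCD, CIDEA and CFD differed by -0.89, -0.77, -0.74 and -0.55. In these 6 genes every MRV array was below every NC array, against 21.8% of all genes lower, 13.3% higher and 35.1% in either direction. For CIDEA the separation was between 84.2 in NC2 and 83.8 in MRV1. For CFD it was between 1293 in NC2 and 1287 in MRV1, so both were near ties. FASN and LIPE differed by -0.41 and -0.22 with overlap, and the remaining FASN probe sets by 0.12, 0.071 and 0.20, of the opposite sign. PNPLA2 differed by -0.0062 and LEP by 0.076.

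Here too the NC animals weighed unequally. Without NC1 the median of the 10 genes was -0.27, with 10 of 10 below 0, and without NC2 it was -0.80, with 8 of 10 below 0. Without MRV2 it was -0.37 and without MRV1 -0.81. DGAT2 ranged from -1.60 without NC2 to -0.18 without NC1. GPD1 ran the other way, at -0.98 without NC1 and -0.40 without NC2, and FABP4 lay between -1.59 and -0.52.

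**Figure D5:**
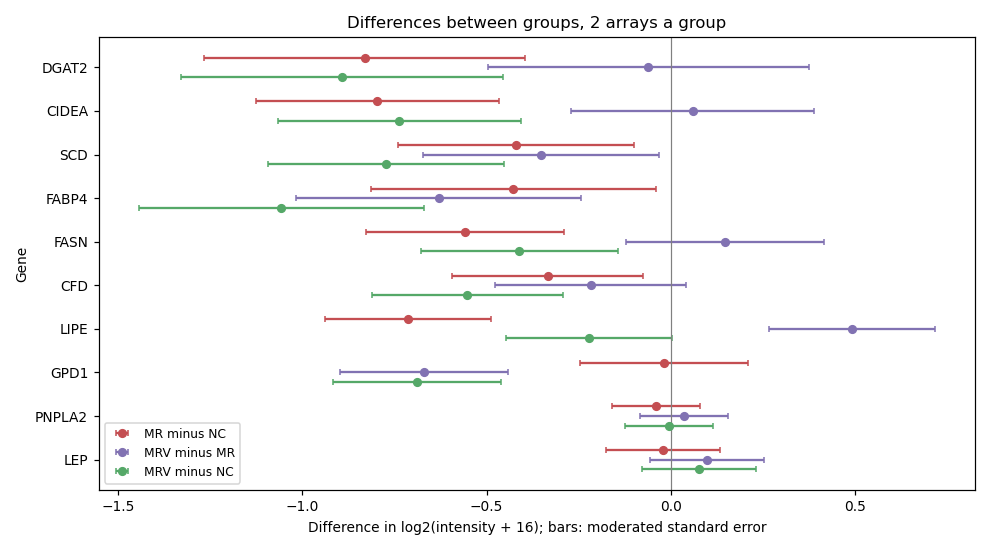
Differences between groups in log2(intensity + 16) (horizontal axis) for each gene (vertical axis), with moderated standard errors as bars, for MR minus NC (red), MRV minus MR (purple) and MRV minus NC (green). LIPE is lower in MR than NC (-0.71) and higher in MRV than MR (0.49), GPD1 is near 0 in MR minus NC and at -0.67 and -0.69 in the other comparisons, and PNPLA2 and LEP lie near 0 throughout.

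Other genes of the same pathways were taken from 5 lists that do not include the 10. Of their 44 tested genes, 0 passed the adjusted limma threshold in any comparison, and at an unadjusted limma p under 0.05 there were 3 in MR minus NC, 3 in MRV minus MR and 1 in MRV minus NC. These are 6.82%, 6.82% and 2.27% of the 44 genes, against 4.02%, 7.28% and 5.29% of all tested probe sets. The unit differs, and with counts this small the shares are a description only. That of MRV minus MR was near the background. Among genes of lipolysis and the droplet coat, 9 of 10 tested genes were lower in MR than in NC, with a median of -0.14, 0 called and 1 with an unadjusted limma p under 0.05. That gene was ABHD5, the activator of PNPLA2, at 612 and 392 for NC, 270.2 and 283 for MR and 318 and 386 for MRV, with a log2 difference of -0.79 between MR and NC (SE 0.22, limma adjusted p = 0.999955). Both MR arrays were below all others, as for LIPE. PLIN2, the droplet coat protein of many cell types, differed by -0.34 (SE 0.19).

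In MRV minus MR, 7 of the 10 lipolysis and droplet genes were higher, with a median of 0.085, and the 2 with the smallest p were HILPDA and FABP3. HILPDA, an inhibitor of PNPLA2, read 59.0 and 104 for NC, 59.2 and 75.8 for MR and 106 and 122.5 for MRV, higher by 0.65 on the log2 scale in MRV than in MR (SE 0.24, limma adjusted p = 0.668), and its dim second probe set differed by 0.19. FABP3, the fatty acid binding protein of heart muscle, read 5833 and 6457 for NC, 6157 and 5008 for MR and 3913 and 4915 for MRV. It was lower in MRV than in both other groups without overlap, by -0.34 (SE 0.17) against MR and -0.48 (SE 0.17, limma adjusted p = 0.904) against NC. In MRV minus NC, 6 of the 10 were lower and ABHD5 differed by -0.47 (SE 0.22).

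Of the triglyceride assembly genes, 9 of 14 tested genes were lower in MR than in NC, with a median of -0.075, 8 of 14 in MRV than in MR, with -0.065, and 11 of 14 in MRV than in NC, with -0.098. LPIN1, which makes the diglyceride that DGAT2 uses, read 879 and 893 for NC, 685.5 and 617.5 for MR and 767 and 958.5 for MRV. It was lower in MR than in NC by -0.44 (SE 0.14, limma adjusted p = 0.999955) and higher in MRV than in MR by 0.39 (SE 0.14, limma adjusted p = 0.655). Its second probe set read 409.5 and 375 for NC, 273 and 215 for MR and 251 and 397 for MRV, so MR was below NC in both. ACSL1, which activates long-chain fatty acids, differed by -0.43 between MR and NC (SE 0.18) and by -0.34 between MRV and NC (SE 0.18). GPD1L, a relative of GPD1, differed by -0.45 between MRV and MR (SE 0.22) and by -0.41 between MRV and NC (SE 0.22). DGAT1, the other enzyme of the step that DGAT2 catalyses, read 164 in NC1, its lowest value, and 202 in NC2.

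Of the fatty acid synthesis genes, 2 of 8 tested genes were lower in MR than in NC (median 0.034), 5 of 8 in MRV than in MR (median -0.071) and 4 of 8 in MRV than in NC (median -0.029). INSIG1, which holds back sterol and lipid synthesis, read 430.4 and 566 for NC, 205 and 300.5 for MR and 606 and 264 for MRV, a log2 difference of -0.95 between MR and NC (SE 0.40, limma adjusted p = 0.999955) and of 0.66 between MRV and MR (SE 0.40). Its dim second probe set differed by -0.15 and 0.075. FADS1, a desaturase, differed by 0.24 between MR and NC (SE 0.17). SREBF1, the transcription factor of FASN and SCD, read 59.4 and 61.5 for NC, 62.0 and 60.5 for MR and 68.2 and 69.0 for MRV, and differed by 0.15 between MRV and NC (SE 0.097). SLC25A1, the citrate carrier, differed by -0.27 between MRV and MR (SE 0.17) and by -0.19 between MRV and NC (SE 0.17). SREBF1 was near the filter, and its lowest value, in NC1, was close to its NC2 and MR values. NC1 was the highest array for SCD and for the brightest FASN probe set. A link of SREBF1 RNA to those values was not tested.

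Of the fat cell identity genes, 4 of the 16 listed were tested. In MR minus NC, 2 were lower, with a median of -0.023, in MRV minus MR 2, with -0.075, and in MRV minus NC 3, with -0.14. LPL, which frees fatty acids from blood lipoproteins, read 1336 and 1334 for NC, 2133 and 1083 for MR and 534 and 1399.9 for MRV, a log2 difference of -0.80 between MRV and MR (SE 0.50) and of -0.61 between MRV and NC (SE 0.50). Its second probe set had the same order, with MR1 highest at 691 and MRV1 lowest at 192. CEBPA differed by -0.20 in each of those comparisons (SE 0.11), and its dim second probe set by 0.046 and -0.025. SLC2A4, the insulin-responsive glucose transporter, and ADRB3 differed by -0.15 and -0.048 between MR and NC. The other SLC2A4 probe sets differed by -0.12 and 0.036, and the dim second one of ADRB3 by -0.087.

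Of the partners of leptin, adiponectin and complement factor D, 6 of 8 tested genes were lower in MR than in NC (median -0.068), 3 of 8 in MRV than in MR (median 0.015) and 5 of 8 in MRV than in NC (median -0.084). ADIPOR2, an adiponectin receptor, differed by -0.30 between MR and NC (SE 0.11, limma adjusted p = 0.999955) and by -0.17 between MRV and NC (SE 0.11). Its second probe set differed by -0.15 and -0.034 (SE 0.12). CD59, which protects cells from complement, differed by -0.31 (SE 0.17) and -0.33 (SE 0.17) in the same comparisons, but its second probe set by -0.0090 and 0.27 (SE 0.28). C3, the central complement protein, read 814 and 588 for NC, 719 and 1325 for MR and 505 and 577 for MRV, a log2 difference of -0.84 between MRV and MR (SE 0.31, limma adjusted p = 0.661), with MR2 far above MR1. JAK2, a kinase of the leptin receptor, differed by 0.31 between MRV and MR (SE 0.23), and its second probe set by 0.058 (SE 0.12). The leptin receptor gene LEPR read between 9.5 and 12.5 on all arrays, below the filter.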

How the data were processed

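The authors deposited linear intensities, 1 for each probe set on each array, between 4.8 and 27167 and already normalized between arrays. MAS5 and RMA are named in the submitters' processing notes, without saying which gave these values. Groups and replicate numbers came from the sample titles. Of 24123 probe sets, 124 controls were left out of the tests, and 14400 with a mean at or above the 40th percentile (61.4) were tested. Values were taken as log2(intensity + 16), which understates changes of dim probe sets. Group means over all 6 arrays were fitted in limma (version 3.58.1, functions lmFit and eBayes, R version 4.3.3), leaving 3 residual degrees of freedom. P-values were adjusted by Benjamini-Hochberg over all tested probe sets, with a threshold of 0.05. The fit was tested on simulated data. Symbols came from the platform annotation, and all 10 matched RefSeq (Sscrofa11.1) by Entrez ID. The members and gene lists were chosen with earlier results of these data known. All probe sets of the 10 genes are given. From the other lists, ADIPOQ, PLIN1, PPARG, CEBPA and CIDEC and the 2 genes with the smallest p per list and comparison are named, and further names were chosen after their values were seen. Intensities of different genes are not compared. The animals are separate, so spread within a group holds animal and technical variation. Precision is limited by having so few arrays. Alternatives were other pseudocounts, filters, scalings and variance models, fits on fewer arrays, a replicate block and the mean of all probe sets.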

Additional observations from a re-analysis of the deposited data

How the results depend on the processing

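With 2 animals a group, leaving out 1 animal moved many values. Over 30 log2 differences of the 10 genes, 414 values were computed under alternatives, of which 394 kept their sign, 20 changed it and 0 passed the threshold. With each array left out in turn, MR minus NC ranged from -0.91 to 0.071 for SCD, from -0.31 to 0.27 for GPD1, from -0.11 to 0.032 for PNPLA2 and from -0.19 to 0.15 for LEP. MRV minus MR ranged from -0.19 to 0.073 for DGAT2, from -0.21 to 0.33 for CIDEA, from -0.51 to 0.073 for CFD, from -0.037 to 0.11 for PNPLA2 and from -0.0073 to 0.20 for LEP. MRV minus NC ranged from -0.56 to 0.11 for LIPE, from -0.080 to 0.067 for PNPLA2 and from -0.092 to 0.24 for LEP. MRV minus NC of PNPLA2 was 0.041 with quantile normalization and 0.033 when all probe sets of a gene were averaged, and that of LEP was -0.011 when averaged so. Scaling moved the median over all probe sets by at most 0.021. The 1 probe set called in MR minus NC became 0 with a pseudocount of 1, no filter, quantile normalization, limma-trend, only the 4 arrays compared, the replicate block, and each array left out (0 to 0); the cause was not tested.

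The replicate number as a block gave 0 calls in MR minus NC, 2 in MRV minus MR and 0 in MRV minus NC, and no call among the 10 genes. These 2 probe sets have no symbol in the annotation used here. Deviations of same-numbered arrays from their group means correlated at 0.34 for NC with MR, 0.20 for NC with MRV and 0.019 for MR with MRV, and the labels do not say that the numbers pair animals.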

Other observations

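CIDEA is best known from brown fat, so other brown and beige fat genes were read as well. Of 12 listed genes, 7 had a probe set with a single symbol and 3 were tested, and UCP1 was not among the 7. PPARGC1A, the coactivator of mitochondrial biogenesis that heart muscle also expresses, read 1443 and 2107 for NC, 1261 and 1633 for MR and 1691 and 2079 for MRV. Both MRV arrays were above both MR arrays, and NC1 was below NC2, unlike CIDEA. UCP2, a mitochondrial carrier, read 76.1 and 54.7 for NC, 53.4 and 65.8 for MR and 83.1 and 69.9 for MRV. COX7A1, the heart and muscle form of a cytochrome oxidase subunit, read between 8463 and 8971 on all arrays. In limma, 0 of the 3 were called in any comparison, and 0 had an unadjusted p under 0.05. DIO2, ELOVL3, UCP3 and TMEM26 lay below the filter. UCP1 had no single-symbol probe set, and heart muscle also makes PPARGC1A and COX7A1. These values therefore cannot show whether brown fat was present.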
